A study of Mus musculus with 4 samples.

Results

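The HoxB cluster genes are the 10 homeobox genes of one chromosomal array on mouse chromosome 11, and they were taken by symbol from the gene counts: Hoxb1, Hoxb2, Hoxb3, Hoxb4, Hoxb5, Hoxb6, Hoxb7, Hoxb8, Hoxb9 and Hoxb13. These were 10 of 24421 genes counted, and all 10 were among the 19891 genes that had at least 1 count. The libraries were 4 Illumina TruSeq RNA-seq libraries of R1, an established mouse embryonic stem cell (ESC) line with no transgene or deletion named in the labels. Of these, 2 were Undiff, which the labels call embryoid bodies and the study's methods call ESCs maintained with leukaemia inhibitory factor (LIF), and 2 were Day4, embryoid bodies grown for 4 days without LIF and then treated for 4 days with retinoic acid (RA). The RA dose is 2 µM in the study's text but 2 mM in the treatment label. The sources thus conflict, and the dose of the study's text was taken here. Undiff and Day4 thus differed in LIF as well as in RA, and no RA-free culture of the same age was analysed here, so the effects of RA, LIF and time cannot be told apart. The replicates were grown and treated separately according to the methods, with 2 of each state.

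HOX genes encode homeodomain transcription factors that give cells of the embryo their position along the head to tail axis. Within a cluster the genes lie in one direction in the order in which they are used: those at the 3′ end, such as Hoxb1, are switched on early and reach far forward into the hindbrain, while those at the 5′ end are switched on late and act in the trunk and tail. RA, bound by nuclear receptors of the RAR and RXR families, acts on enhancers in and beside the 3′ part of the HoxB cluster, and RA treatment of stem cells is a textbook way of switching HOX genes on.

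On the GRCm38 assembly, with GENCODE vM21 gene models, the cluster ran from Hoxb13 to Hoxb1 over chr11:96194316-96368256, a stretch of 174 kb with all 10 genes on the plus strand. Hoxb9 to Hoxb1 filled 96.8 kb, and Hoxb13 lay apart from them behind a gap of 74.0 kb. The genes are related by sequence, most closely in the homeobox, the stretch that encodes the DNA-binding domain. Across the 45 pairs of members, 50.6% (Hoxb5 and Hoxb13) to 88.9% (Hoxb6 and Hoxb7) of the homeobox bases were identical. The 33 bases below encode the recognition helix, the part that enters the major groove of DNA, and are shown because they are where the members could most easily be mistaken for each other in counting. They are in 5′ to 3′ order from the GENCODE transcripts on GRCm38, each within coding exon 2 of 2 of its gene, and capitals mark bases that differ from the most common base of the 10 members.
Hoxb1, chr11:96366981-96367013: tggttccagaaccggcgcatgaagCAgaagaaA
Hoxb2, chr11:96353126-96353158: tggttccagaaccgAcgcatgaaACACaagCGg
Hoxb3, chr11:96345809-96345841: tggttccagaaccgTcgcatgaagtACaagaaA
Hoxb4, chr11:96320197-96320229: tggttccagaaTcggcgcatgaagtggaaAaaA
Hoxb5, chr11:96305048-96305080: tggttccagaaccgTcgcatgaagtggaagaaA
Hoxb6, chr11:96300830-96300862: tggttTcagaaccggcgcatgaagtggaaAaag
Hoxb7, chr11:96289526-96289558: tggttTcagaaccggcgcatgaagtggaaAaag
Hoxb8, chr11:96284315-96284347: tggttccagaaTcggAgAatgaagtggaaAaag
Hoxb9, chr11:96274800-96274832: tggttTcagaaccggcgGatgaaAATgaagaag
Hoxb13, chr11:96196161-96196193: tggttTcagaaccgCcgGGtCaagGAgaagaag
All members had the same base at 18 of the 33 positions. Hoxb6 and Hoxb7 were identical throughout the stretch, Hoxb2 and Hoxb13 each departed from the most common base at 7 positions, and the departures of Hoxb2, Hoxb9 and Hoxb13 lay mainly towards the 3′ end. The longest run of identical bases between the coding sequences of any pair was 37 bases, again for Hoxb6 and Hoxb7, so these are related genes and not near-identical copies.

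The whole cluster was near the detection limit in Undiff and was expressed in Day4. The libraries held 32099074 to 47730944 counts on genes. Counts are given here also as CPM, the usual scaling of counts by each library's total, with the totals corrected by TMM factors of 0.9747 to 1.025. A count of 3, treated as the floor of detection, corresponded to 0.0615 to 0.0959 CPM. Fragments on all HoxB genes together summed to 78 and 60 counts in the Undiff libraries and to 13876 and 18424 counts in the Day4 libraries. In CPM these sums were 2.17 and 1.92 in Undiff and 387 and 378 in Day4, with means of 2.04 ± 0.177 and 382 ± 6.36 (SD, n = 2 each). The summed level was thus 187 times higher in Day4, a log2 difference of 7.55, and was close between replicates of a state. In bulk RNA, more cells that express a gene and more RNA per cell cannot be told apart.

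Gene by gene, all 10 HoxB genes were differentially expressed genes (DEGs) with higher levels in Day4, as tested with edgeR's quasi-likelihood test over all genes, at the study's thresholds (adjusted p no higher than 0.05, a log2 fold change of 1 or more in either direction, and a normalized count averaging 5 or more). Of all genes tested, 22.2% were DEGs with higher levels in Day4. Both Day4 libraries lay above both Undiff libraries for all 10 members, as they did for 42.7% of all genes. The log2 fold change reached 4 for 9 of the 10, with Hoxb9 as the exception, against 4.5% of all genes that were such DEGs. The median log2 fold change was 7.88 over the members and -0.03 over all genes tested. With 2 libraries per state, an exact permutation test of a single gene cannot go below p = 0.333, so the adjusted p-values below rest on edgeR's estimate of the spread across genes.

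**Figure D1:**
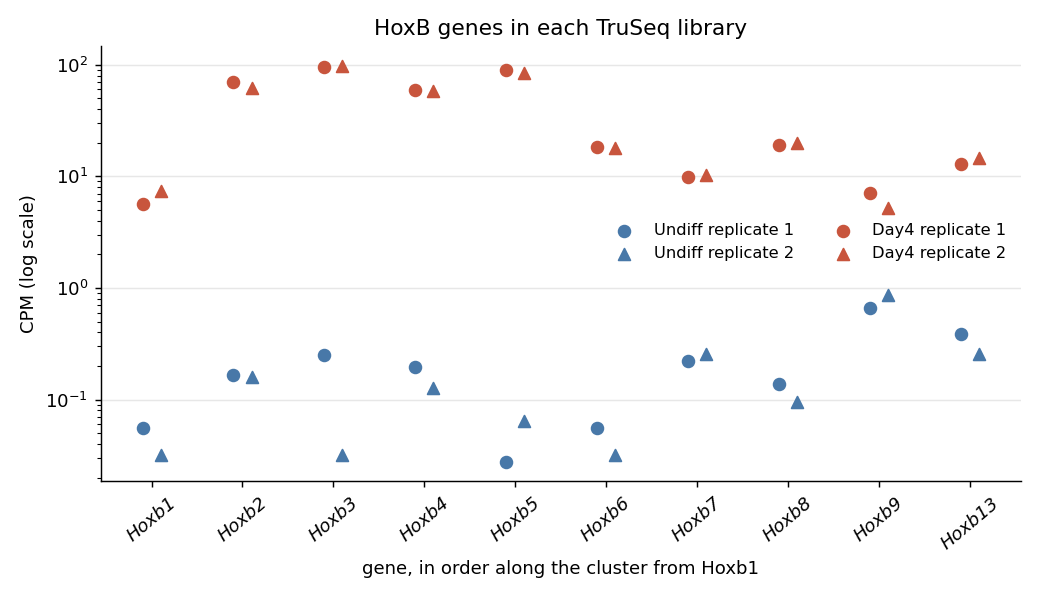
Level of each HoxB gene in every TruSeq library, in CPM on a log axis, with genes in order along the cluster from Hoxb1, circles for replicate 1 and triangles for replicate 2. The Undiff points (blue) all lie below 1 CPM and the Day4 points (red) between 5.19 and 97.9 CPM, with the smallest separation at Hoxb9.

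Hoxb1, the most 3′ gene, is active in the early hindbrain, where it sets the identity of the segment that forms the facial nerve. It had 2 and 1 counts in the Undiff libraries and 201 and 362 counts in the Day4 libraries. In Day4 this was 5.61 and 7.42 CPM, a mean of 6.52 ± 1.28 (SD, n = 2). Both Undiff libraries were at or under the floor and both Day4 libraries were far above it, with a visible gap between the Day4 replicates. With so few Undiff counts the size of the change is best given as the ratio of the pooled counts, which was 149 with a 95% interval of 50.8 to 725 (exact conditional, for counting error only). The difference passed edgeR's test at an adjusted p of 5.7e-10. Hoxb1 lies at chr11:96365752-96368256.

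Hoxb2 and Hoxb3 follow in 5′ direction and also pattern hindbrain segments, with Hoxb2 a known target of the HOXB1 protein and of EGR2. Hoxb2, at chr11:96350525-96354012, had 6 and 5 counts in Undiff and 2483 and 3027 in Day4. Its level was 0.167 and 0.160 CPM in Undiff and 69.3 and 62.1 CPM in Day4, a log2 fold change of 8.62 ± 0.16 (SE, edgeR adjusted p = 2.4e-14). The libraries of each state lay close together and the states were far apart. Hoxb3, at chr11:96323326-96347930, had 9 and 1 counts in Undiff and 3439 and 4772 in Day4. Its level was 0.251 and 0.0320 CPM in Undiff and 96.0 and 97.9 CPM in Day4, the highest CPM of the cluster, and the log2 fold change was 9.32 ± 0.16 (SE, edgeR adjusted p = 1.2e-14). The Day4 libraries nearly coincided, while the Undiff libraries did not, and the size of the Hoxb3 change rested on which of them was used: the log2 fold change was 11.43 without Undiff replicate 1 and 8.58 without Undiff replicate 2, and it was 8.47 with DESeq2 at the study's settings. For both genes part of the exons is shared with an antisense gene on the opposite strand, Hoxb3os, which covered 27.3% of the exon bases of Hoxb2 and 52.9% of those of Hoxb3. Hoxb3os had no row of its own in the counts, and the methods name only the direct RNA libraries as counted by strand, without giving the TruSeq setting, so fragments from it could have been counted on either gene.

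Hoxb4 and Hoxb5 are the middle of the RA-responsive part of the cluster. Hoxb4 marks the posterior hindbrain and is known for its effect on blood stem cells, and Hoxb5 acts in the neural crest that forms the nerves of the gut. Hoxb4, at chr11:96318267-96321638, had 7 and 4 counts in Undiff and 2121 and 2838 in Day4, which were 59.2 and 58.2 CPM in Day4. Its log2 fold change was 8.46 ± 0.14 (SE, edgeR adjusted p = 1e-14). Hoxb5, at chr11:96303336-96306121, had 1 and 2 counts in Undiff, both under the floor, and 3235 and 4121 counts or 90.3 and 84.5 CPM in Day4. It thus went from hardly any fragments to the second highest CPM of the cluster. The ratio of its pooled counts was 1950 with a 95% interval of 666 to 9450, and edgeR's adjusted p was 1.8e-15. Its fitted log2 fold change of 10.83 was the 26th highest of all genes tested, but it moved to 11.46 without Undiff replicate 2 and to 10.15 with DESeq2 at the study's settings, with 3 Undiff counts in all behind it. The antisense gene Hoxb5os covered 3.59% of the exon bases of Hoxb5.

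Hoxb6, Hoxb7 and Hoxb8 are the central genes. Hoxb6 is expressed in the lateral mesoderm and posterior neural tube, Hoxb7 in the branching ureteric bud of the kidney, and Hoxb8 in the spinal cord and in early cells of the myeloid lineage. Hoxb6, at chr11:96292476-96301569, had 2 and 1 counts in Undiff and 652 and 881 in Day4, with 18.2 and 18.1 CPM in the Day4 libraries. The ratio of its pooled counts was 406 with a 95% interval of 139 to 1970 (edgeR adjusted p = 2.8e-13). Its Undiff libraries were under the floor, and its Day4 libraries differed less in CPM than those of any other member. Hoxb7, at chr11:96286623-96290162, had 8 and 8 counts in Undiff and 354 and 495 in Day4. That was 0.223 and 0.256 CPM against 9.88 and 10.2 CPM, a log2 fold change of 5.38 ± 0.20 (SE, edgeR adjusted p = 2e-11). Although Hoxb6 and Hoxb7 are the closest relatives by sequence, Hoxb7 had more fragments in Undiff and fewer in Day4 than Hoxb6. Hoxb8, at chr11:96281905-96285315, had 5 and 3 counts in Undiff and 676 and 965 in Day4. Its Day4 level was 18.9 and 19.8 CPM, and its log2 fold change was 7.31 ± 0.19 (SE, edgeR adjusted p = 7.7e-13).

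Hoxb9 and Hoxb13 are the genes at the 5′ end. Hoxb9 takes part in patterning the ribs and the mammary gland, and Hoxb13 is expressed in the tail bud and later in the prostate and hindgut. Hoxb9, at chr11:96271457-96276595, had 24 and 27 counts in Undiff, the most of any member, and 255 and 253 counts in Day4. Its level was 0.668 and 0.863 CPM in Undiff and 7.12 and 5.19 CPM in Day4, a log2 fold change of 2.99 ± 0.24 (SE, edgeR adjusted p = 6.1e-08). The ratio of pooled counts was 7.91 with a 95% interval of 5.93 to 10.8, which did not overlap the interval of any other member. Hoxb13, at chr11:96194316-96197447, had 14 and 8 counts in Undiff and 460 and 710 in Day4. Its level was 0.390 and 0.256 CPM in Undiff and 12.8 and 14.6 CPM in Day4, a log2 fold change of 5.38 ± 0.20 (SE, edgeR adjusted p = 1.6e-11). Hoxb13 was thus above Hoxb9 in both Day4 libraries and below it in both Undiff libraries, even though it lies farther 5′. The order of activation along the cluster could not be read from these samples, which hold no time point between Undiff and Day4.

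The composition of the HoxB transcripts shifted with the state. The split used here was chosen after the values were seen and carries no test. Hoxb9 and Hoxb13 made up 48.7% and 58.3% of all HoxB counts in the Undiff libraries (95% exact binomial intervals 37.2% to 60.3% and 44.9% to 70.9%) and 5.15% and 5.23% in the Day4 libraries (4.79% to 5.53% and 4.91% to 5.56%). Hoxb2 to Hoxb5 made up 29.5% and 20% in Undiff (19.7% to 40.9% and 10.8% to 32.3%) and 81.3% and 80.1% in Day4 (80.6% to 81.9% and 79.5% to 80.7%). The few fragments of Undiff thus came in large share from the 5′ end, and the many of Day4 from Hoxb2 to Hoxb5. The Undiff shares rest on 78 and 60 fragments, and their intervals are wide.

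To compare levels between genes, the Day4 CPM of each gene was divided by the length of its merged exons. The lengths are from GENCODE vM21, while fragments were counted on a UCSC annotation. The exons measured and the exons counted may thus differ, here and in the comparison with paralogues. On this scale, CPM per kb of exon, the order in Day4 was Hoxb5, Hoxb4, Hoxb3, Hoxb2, Hoxb6, Hoxb8, Hoxb7, Hoxb13, Hoxb1 and Hoxb9. Hoxb5 stood at 31.4 ± 1.46 CPM per kb, followed by Hoxb4 at 22.9 ± 0.270 and Hoxb3 at 22.8 ± 0.317 (SD, n = 2), whose libraries overlapped. Hoxb2 followed at 18.8 ± 1.46. These 4 neighbouring genes formed a plateau, and a step down separated Hoxb2 from Hoxb6, at 9.23 ± 0.045 CPM per kb. Hoxb8 at 7.33 ± 0.249 lay above Hoxb7 at 6.49 ± 0.125 without overlap of their libraries, and Hoxb7 overlapped Hoxb13 at 6.21 ± 0.553. Hoxb1 at 2.81 ± 0.553 and Hoxb9 at 2.39 ± 0.529 were lowest and overlapped each other. The lowest levels thus belonged to the genes at the 2 ends of the Hoxb1 to Hoxb9 array, and the level did not simply fall or rise with place. Spearman's rho between place from Hoxb1 and level was -0.41 over the 10 members, which share libraries and so are not independent. The order depended in part on the length used: per kb of the longest transcript, Hoxb5 at 31.4 and Hoxb3 at 30.4 overlapped, and Hoxb7 at 7.76 passed Hoxb8 at 7.33, while per kb of coding sequence Hoxb9 passed Hoxb1.

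**Figure D2:**
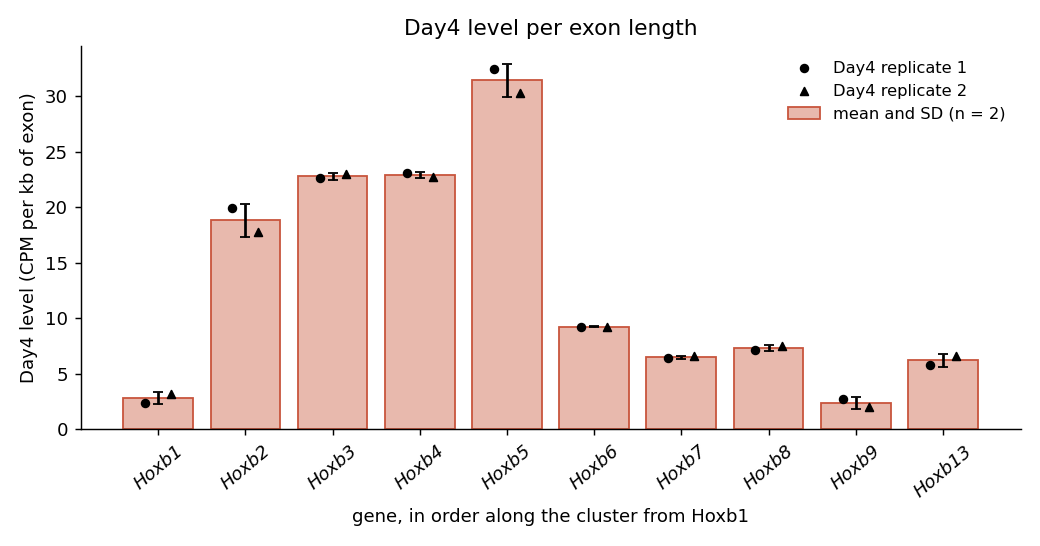
Day4 level of each HoxB gene in CPM per kb of merged exons, in order along the cluster from Hoxb1, with bars for the mean, error bars for the SD (n = 2) and symbols for the replicates. Hoxb2 to Hoxb5 stand between 17.8 and 32.4 CPM per kb, and no other member exceeds 9.26.

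The Day4 replicates are separate cultures with 1 library each, so their ratios are given as a description. The CPM ratio of Day4 replicate 2 to replicate 1 was 1.32 for Hoxb1, with a 95% interval of 1.11 to 1.58 (exact conditional), and 0.729 for Hoxb9 (0.610 to 0.871). Hoxb1 had the highest ratio and Hoxb9 the lowest of the 10 members. The intervals, which cover counting error only and not the spread between cultures, also left out 1 for Hoxb2, at 0.896 (0.849 to 0.945), Hoxb5, at 0.936 (0.894 to 0.981), and Hoxb13, at 1.13 (1.01 to 1.28). For Hoxb3, Hoxb4, Hoxb6, Hoxb7 and Hoxb8 the ratio was 0.983 to 1.05 and the intervals held 1. The ratios are small beside the difference between states, where the ratio of pooled counts was 7.91 or more for every member.

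**Figure D3:**
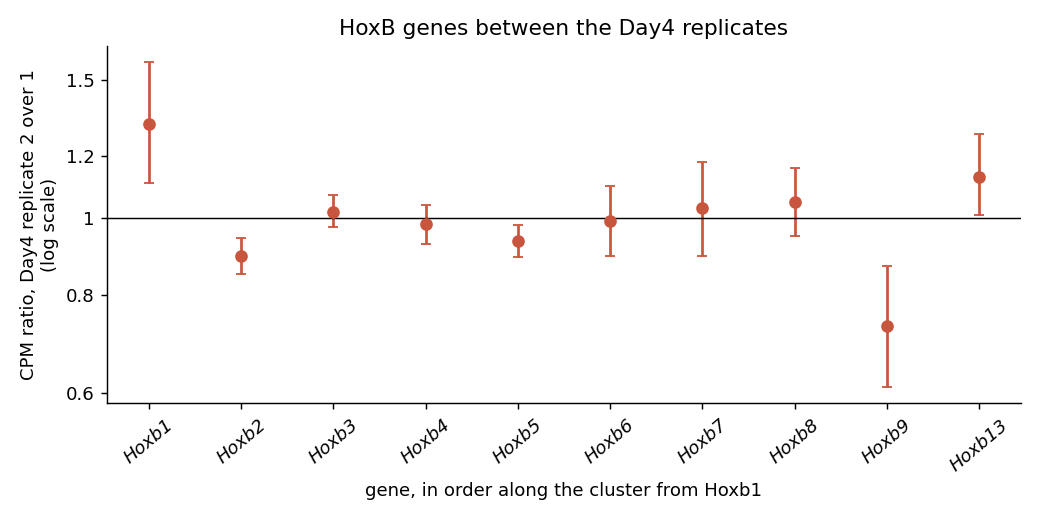
Ratio of the CPM in Day4 replicate 2 to that in Day4 replicate 1 for each HoxB gene, on a log axis, with 95% intervals for counting error and a line at 1. Hoxb1 lies above the line at 1.32 and Hoxb9 below it at 0.729, with the other members between 0.896 and 1.13.

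Promoter sequences were at hand for 3 of the 10 members, from RefSeq on GRCm38.p6, and cover 250 bases before and 50 bases after the annotated start. They are shown because these genes rose from near 0 and their start regions hold letters known from HOX regulation. The motifs were chosen after the sequences were seen. Both strands were searched for AGGTCA, a single unit of a RAR site, which holds 2 units. Its known variants were also searched, which are GGGTCA in several genes, and in the Rarb gene AGTTCA paired with GGTTCA. The other motifs were the HOX-PBX site TGATNNAT, the MEIS site TGACAG, the CDX site TTTATG with its longer form TTTATTG, and the TATA box TATAAA. Capitals mark the matches, which did not overlap each other.
Hoxb1, chr11:96365508-96365807, plus strand: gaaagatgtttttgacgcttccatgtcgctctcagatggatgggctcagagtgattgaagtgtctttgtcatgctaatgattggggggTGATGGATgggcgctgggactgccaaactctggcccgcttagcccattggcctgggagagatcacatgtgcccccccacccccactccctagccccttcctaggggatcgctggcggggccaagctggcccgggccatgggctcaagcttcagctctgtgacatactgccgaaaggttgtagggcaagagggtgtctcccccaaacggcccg
Hoxb4, chr11:96318017-96318316, plus strand: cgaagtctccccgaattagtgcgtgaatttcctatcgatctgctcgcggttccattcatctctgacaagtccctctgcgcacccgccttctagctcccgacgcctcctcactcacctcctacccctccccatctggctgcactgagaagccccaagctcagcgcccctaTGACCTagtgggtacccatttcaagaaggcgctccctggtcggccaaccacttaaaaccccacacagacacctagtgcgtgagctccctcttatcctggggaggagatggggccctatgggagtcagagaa
Hoxb8, chr11:96281655-96281954, plus strand: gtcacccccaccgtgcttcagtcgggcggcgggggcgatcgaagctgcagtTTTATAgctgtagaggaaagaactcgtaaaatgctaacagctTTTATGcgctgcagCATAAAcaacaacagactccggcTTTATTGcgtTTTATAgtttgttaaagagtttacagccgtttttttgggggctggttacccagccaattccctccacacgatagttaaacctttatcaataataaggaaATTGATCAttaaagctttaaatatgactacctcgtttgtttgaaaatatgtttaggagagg
The Hoxb1 window held 1 HOX-PBX match, starting at -162 on the plus strand, and the Hoxb1 gene is known to be maintained by its own protein through such sites. The Hoxb4 window held 1 single RAR unit, AGGTCA on the minus strand at -81. In no window did such units form a direct repeat with a spacer of 1 to 5 bases. The Hoxb8 window held 3 CDX matches, at -157, -143 and -120, 2 TATAAA matches on the minus strand and 1 HOX-PBX match on the minus strand at -11. Among all 32851 promoters at hand, 43.7% held a RAR unit, 8.85% the HOX-PBX site, 19.2% the MEIS site, 15.6% a CDX site and 13.6% TATAAA. The windows had 10, 14 and 13 CG dinucleotides in Hoxb1, Hoxb4 and Hoxb8, against a median of 7 over all promoters, and their GC content was 59.3%, 58.0% and 42.3% against a median of 52.7%. A match of letters describes the sequence and does not show that a factor bound there.

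Other genes inside the cluster did not all move with the HoxB genes. Between Hoxb13 and Hoxb9 lie the long noncoding RNA gene Gm53, at chr11:96251105-96264868, and the microRNA gene Mir196a-1, at chr11:96265164-96265265. Gm53 had 26 and 15 counts in Undiff and 20 and 25 in Day4, overlapping ranges with a log2 fold change of -0.20 ± 0.35 (SE, edgeR adjusted p = 0.61). Mir196a-1 had 15 and 12 counts in Undiff and 1 and 5 in Day4, and was a DEG with lower levels in Day4 (log2 fold change -2.45 ± 0.60 (SE), edgeR adjusted p = 0.0023). Between Hoxb5 and Hoxb4 lies Mir10a, at chr11:96317165-96317274, with 0 and 0 counts in Undiff and 5 and 11 in Day4. Against a floor of 3 counts per library Mir10a was at least 2.04-fold higher, with an edgeR adjusted p of 0.0034, but it did not reach the mean count that a DEG needs. Both microRNAs are known to pair with HOX messenger RNAs, miR-196a with that of Hoxb8, and their mature sequences from RefSeq on GRCm38.p6 are given with the seed, bases 2 to 8, in capitals.
miR-196a-5p: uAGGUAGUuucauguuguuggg
miR-10a-5p: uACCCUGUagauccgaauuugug
The seeds of the pair differ. The values above are fragments of the hairpin loci in libraries not made for small RNA, so they are not levels of these mature microRNAs.

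The antisense gene Hoxb5os, at chr11:96291024-96306910 on the minus strand, had 0 and 0 counts in Undiff and 120 and 156 in Day4. Its Day4 level was 3.27 ± 0.105 CPM (SD, n = 2), at least 36.5-fold above the floor of 3 counts per library, and it was a DEG with an edgeR adjusted p of 1.2e-08. Its span holds the sense genes Hoxb6 and Hoxb5, but in the gene models used here it shares exon bases only with Hoxb5 (100 bases), where fragments of the pair cannot be told apart unless counting was stranded. Outside the cluster, only the nearest protein-coding gene on each side that passed a count filter was looked at. Both were DEGs with lower levels in Day4, as were 20.6% of all genes tested. The nearest protein-coding gene with at least 10 counts on the Hoxb13 side was Ttll6, a tubulin-modifying enzyme 28.9 kb away, with 420 and 349 counts in Undiff and 5 and 12 in Day4. Its log2 fold change was -5.81 ± 0.20 (SE, edgeR adjusted p = 9.4e-12). On the Hoxb1 side it was Skap1, an adaptor protein of T cells 96.3 kb away, with 18 and 10 counts in Undiff and 3 and 11 in Day4 (log2 fold change -1.32 ± 0.53 (SE), edgeR adjusted p = 0.038).

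**Figure D4:**
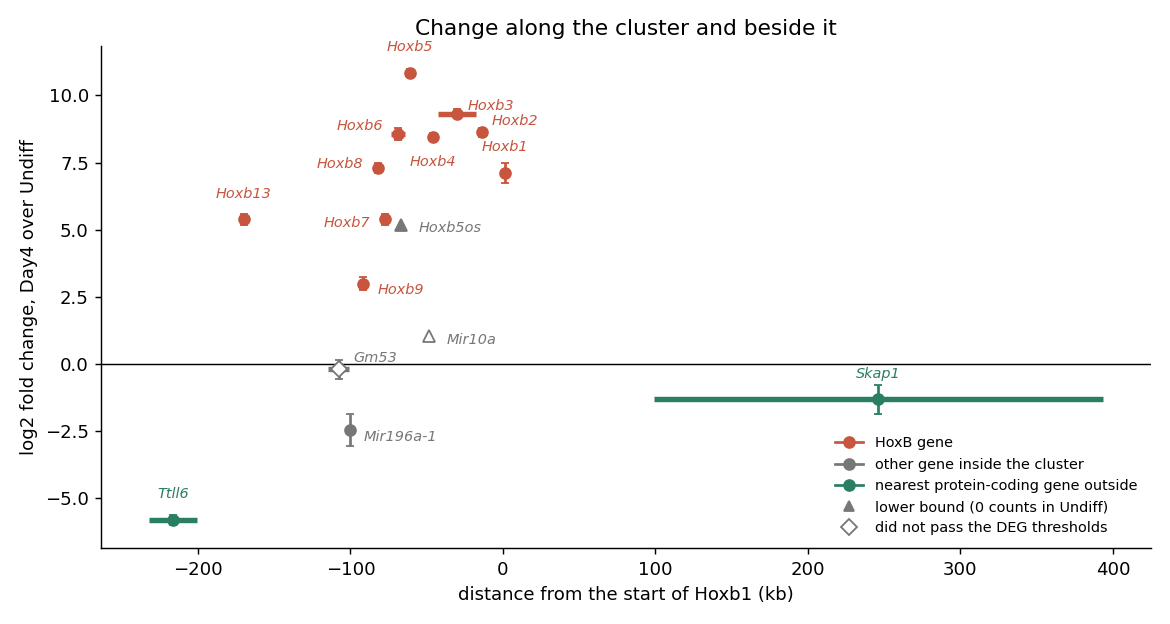
Fitted log2 fold change (Day4 over Undiff, edgeR) of genes in and beside the HoxB cluster against distance from the start of Hoxb1 in kb, with horizontal bars for the extent of each gene, error bars for the SE, triangles for lower bounds of genes with 0 counts in Undiff, and open symbols for genes that were not DEGs. The HoxB genes lie between 2.99 and 10.83, Gm53 at -0.20 and Mir196a-1 at -2.45, and the flanking genes Ttll6 and Skap1 at -5.81 and -1.32.

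Paralogues, the genes of equal number in the other HOX clusters, gave a comparison across the genome. Of the HoxA genes numbered 2 to 11, 9 of 9 were DEGs with higher levels in Day4, so that having every member called was not limited to HoxB. Their median log2 fold change was 9.26, or 7.34 with the gene that had 0 counts in both Undiff libraries set at its bound against the floor. Of the HoxC genes, 6 of 9 were higher, 1 was lower and 2 were not DEGs, with a median of 8.25. Of the HoxD genes, 7 of 9 were higher and 2 were not DEGs, with a median of 6.46. The summed Day4 level was 536 and 546 CPM for these HoxA genes, 484 and 499 CPM for HoxC and 77.7 and 82.1 CPM for HoxD, so that the HoxB sum of 387 and 378 CPM lay below HoxA and HoxC and above HoxD in both libraries. The share of genes called higher was above the 22.2% of all genes in each of these clusters.

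By number, and per kb of merged exons in Day4, the HoxB gene was the highest of the paralogues compared in groups 3 and 7. It was not the highest in groups 2, 4, 5, 6, 8 and 9. In group 2 this depended on the scale: Hoxb2 stood at 18.8 against 20.9 for Hoxa2 per kb, but at 65.7 against 37.1 in CPM. Per kb of exon in Day4, Hoxb1 stood at 2.81 CPM and Hoxd1 at 2.52. Hoxb4 and Hoxb5, at 22.9 and 31.4, stood far below Hoxa4 and Hoxa5 at 92.6 and 145, and below Hoxc4 and Hoxc5 at 34.2 and 91.4. Hoxb3 stood above its paralogues, at 22.8 against 6.40 for Hoxa3 and 3.24 for Hoxd3. Hoxb8 at 7.33 was close to Hoxd8 at 7.31 and below Hoxc8 at 20.1. In group 9, Hoxb9 at 2.39 and Hoxa9 at 2.26 were lowest, with Hoxc9 at 4.51 and Hoxd9 at 9.15. In mean Day4 CPM, without division by length, Hoxb9 at 6.15 was below Hoxa9 at 12.6.

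In group 13, Hoxb13 stood at 6.21 CPM per kb in Day4, against 0.106 for Hoxc13 and 0.435 for Hoxd13. Hoxd13 had 41 and 26 counts in Undiff and 37 and 55 in Day4 and was not a DEG (log2 fold change 0.13 ± 0.26 (SE), edgeR adjusted p = 0.67), and Hoxc13, with 29 and 23 counts in Undiff and 7 and 16 in Day4, was a DEG with lower levels in Day4 (edgeR adjusted p = 0.0027). The log2 ratio of Hoxb13 to Hoxd13 counts was -1.55 and -1.70 in Undiff and 3.64 and 3.69 in Day4, a difference of 5.29. For Hoxb13 to Hoxc13 it went from -1.05 and -1.52 to 6.04 and 5.47. In Undiff, Hoxb13 thus had fewer fragments than Hoxc13 or Hoxd13 and in Day4 many more. Hoxa13, the HoxA gene of this group, was not among the genes compared. The ratio of Hoxb9 to Hoxd9 differed by -3.66, in the direction of Hoxd9. The states did not overlap in any of these 3 ratios, which are a few of many possible pairs. Each gave p = 0.333 in an exact two-sided permutation test. That is the smallest value possible with 2 libraries per state, so the test could not decide, and the ratios are a description only.

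**Figure D5:**
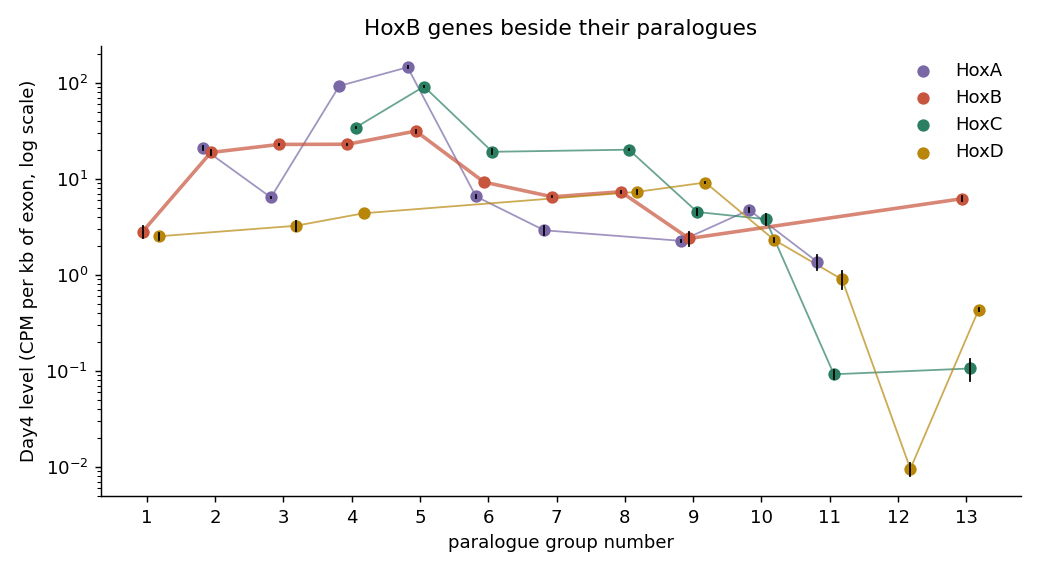
Day4 level in CPM per kb of merged exons on a log axis for the HOX genes compared here by paralogue group, coloured by cluster, with points for the mean and black lines from the lower to the higher replicate. The HoxB line has its peak at Hoxb5 with 31.4 and ends at Hoxb13 with 6.21, above Hoxc13 at 0.106 and Hoxd13 at 0.435.

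HOX proteins bind DNA together with PBX and MEIS/PREP homeodomain proteins. Of 9 genes of these families, 7 were DEGs with higher levels in Day4 and 1 with lower levels, against 22.2% and 20.6% of all genes. Their median log2 fold change was 3.87. Meis2 went from 0.919 and 1.18 CPM to 392 and 379 CPM (log2 fold change 8.53 ± 0.08 (SE), edgeR adjusted p = 1.9e-16). Pbx2 went from 40.5 and 39.8 CPM to 218 and 216 CPM, a rise of 2.43 on the log2 scale, and Pbx4 fell by 1.5. Partners of the HoxB proteins were thus present in Undiff already, and most were at a higher level in Day4.

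Of 18 genes of the RA pathway, which hold the receptors, binding proteins and enzymes that make or break down RA, 12 were DEGs with higher levels and 2 with lower levels in Day4, against 22.2% and 20.6% of all genes, and their median log2 fold change was 2.64. Cyp26b1, which breaks down RA, rose by 9.78 ± 0.09, Dhrs3, which turns retinal back to retinol, by 7.83 ± 0.08, and the receptor Rarb, itself a direct RA target, by 9.56 ± 0.09 on the log2 scale (SE, edgeR adjusted p of at most 2.4e-16). The receptors Rarg and Rxrg fell by 1.02 and 1.35. Of 8 genes known to act upstream of HOX clusters, 3 were higher and 3 lower, with a median of -0.90. Gbx2 fell from 17.4 and 22.1 CPM to 1.31 and 1.60 CPM. Egr2, a known activator of Hoxb2, had 0.668 and 0.415 CPM in Undiff and 0.167 and 0.328 CPM in Day4, and Cdx1 fell by 2.00. Egr2 was thus low in both states, and its part in the Hoxb2 level was not tested.

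Marker lists of several cell types also differed between the states, some upward and some downward. Their part in the HoxB result was not tested. All 10 pluripotency markers were DEGs with lower levels in Day4, where 20.6% of all genes were, and their summed level was 3970 and 4070 CPM in Undiff and 25.3 and 21.2 CPM in Day4. Over all genes tested, 22.2% were DEGs with higher and 20.6% with lower levels, the shares to set beside the counts that follow. Of 10 mesoderm markers, 8 were higher and 1 lower (median log2 fold change 4.78), with sums of 20.8 and 24.7 CPM in Undiff and 762 and 771 CPM in Day4. Of 10 fibroblast markers, 8 were higher and 1 lower (median 4.01), with sums of 87.0 and 77.3 CPM and of 1750 and 1600 CPM. Of 10 neural markers, 3 were higher and 5 lower (median -0.77), with sums of 352 and 358 CPM in Undiff and 172 and 184 CPM in Day4. Among them Dcx, of migrating neurons, rose by 9.15, while the neuronal genes Tubb3 and Elavl3 fell by 3.82 and 5.74. Of 11 forebrain and midbrain markers, which mark tissue in front of the HOX domain, 5 were higher and 3 lower (median 1.14), with sums of 5.43 and 6.97 CPM in Undiff and 137 and 124 CPM in Day4, most of it Lhx2. HoxB genes are expressed in hindbrain, spinal cord and mesoderm alike, and bulk libraries do not show in which cells they rose.

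The genes whose levels were most like the mean of the HoxB members were found by the root mean square difference of log2(CPM + 0.5) over the 4 libraries. The mean profile of the members was -0.52 and -0.59 in Undiff and 4.63 and 4.63 in Day4. The 5 genes outside the HOX families with the smallest difference were Pcdhb22 (0.081), Tmem178 (0.097), Pcsk5 (0.143), Kcnj8 (0.149) and Kcna5 (0.154). Over only 4 libraries in 2 states, such likeness mainly says that a gene went from about the same low level to about the same Day4 level.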

How the data were processed

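RNA of Undiff and Day4 cells was sequenced as Illumina TruSeq libraries, 2 of each state, and groups were taken from the sample labels. The authors removed adapters with cutadapt, mapped the reads to mm10 by STAR 2.4.2a and assigned unique fragments to genes with HTSeq on a UCSC annotation. The deposited values are raw counts per gene symbol, without normalization. Lines that name no gene were left out: fragments on no gene were 7.5% to 13.2% and ambiguous fragments 1.84% to 1.91%. The methods say that gene counting took account of strandedness and name only direct RNA libraries as strand-specific. They give no option for TruSeq genes, and for TruSeq exons the strand was not used. Long-read libraries and exon counts were not analysed here.

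Genes with a count in any library (19891) were scaled with TMM (trimmed mean of M values). The test was glmQLFTest after glmQLFit in edgeR 4.0.16 and R 4.3.3, with Benjamini-Hochberg adjustment over all of them. The SE of a log2 fold change is its absolute value over the root of the F statistic. The biological coefficient of variation was 3.66%. DESeq2, which the authors used in another version, was run as an alternative (version 1.42.0), beside other scalings, filters and thresholds and the omission of each library. On simulated counts of 19535 genes, 200 of 200 changed genes were recovered. The changed genes were drawn only from genes above a minimum mean count, and their changes were smaller than those fitted for most HoxB genes. The simulation thus does not show how well changes from counts as low as those in Undiff are sized. Libraries held 32099074 to 47730944 counts, and intervals cover counting error only. Positions and lengths came from GENCODE vM21 and promoters from RefSeq, matched by symbol.

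The members and gene lists were chosen with earlier results of these data known. Named beside the members were genes inside the cluster, the nearest protein-coding gene with at least 10 counts on each side, up to 3 DEGs per direction of each list by mean CPM, and the 5 genes most alike in profile. Some genes that these rules take are not reported here.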

Additional observations from a re-analysis of the deposited data

How the results depend on the processing

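All 10 HoxB genes were DEGs with higher levels in Day4 under each of the 15 alternatives, while the number of DEGs over all genes ran from 6268 (minimum mean count of 50) to 14309 (no minimum fold change), against 8521. Leaving out each library in turn, the count was 10 to 10, and each gene kept its direction and its call in 12 of 12 alternatives; the largest adjusted p was 0.0011, for Hoxb9. The summed log2 fold change of 7.55 was 7.23 without Hoxb3, 7.62 with library totals, 7.51 with DESeq2 size factors and 7.46 to 7.64 without each library. Same-numbered replicates did not deviate together (correlation -0.0129 over 16472 genes). This gave no sign of pairing by number, but with 2 libraries per state it cannot exclude pairing. With a replicate block, 10 HoxB genes and 8515 genes in all were DEGs. The older quasi-likelihood method of edgeR was added after seeing the data. Spearman's rho between place and Day4 level was -0.43 per longest transcript and -0.27 per coding length. Depth limits the Undiff side: Hoxb1, Hoxb5 and Hoxb6 had 3 counts over both Undiff libraries. The size of their change is thus known no more closely than the intervals given, which leave out the spread between cultures.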
